A study of Rattus norvegicus with 9 samples.

Results

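The genes described are 9 carriers that move water-soluble vitamins across cell membranes: Slc5a6, Slc19a1, Slc19a2, Slc19a3, Slc23a1, Slc23a2, Slc46a1, Slc52a2 and Slc52a3. They were taken by symbol from the deposited tables, where 9 of 9 were found among 32883 genes. Slc5a6 was selected on its lower values in DB than in HE, so that difference, and its values in BB against the same HE libraries, are given as a description with no test. The other 8 members were chosen as carriers of vitamins. RNA was sequenced from male wild-type Wistar rats on day 31, in 3 libraries per group, each named by its rat. HE rats ate a standard diet and were injected with citrate buffer. DB and BB rats both ate a high fat diet and received a single intraperitoneal low dose of streptozotocin (25 mg/kg), a toxin of insulin-producing cells, so diet and toxin cannot be told apart. BB rats were also given black bean extract by gavage (260 mg/kg/day), and DB rats were given water by gavage. The paper describes HE as untreated and names no gavage for it. Gavage may therefore also separate HE from DB and BB. The age of the rats is not given in the sources used here.

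Mammals cannot make most water-soluble vitamins, and membrane carriers bring them from the diet through the gut wall and into each tissue. Slc5a6 encodes the sodium-dependent multivitamin transporter, which carries biotin, pantothenate and lipoate. Biotin is the cofactor of carboxylases such as the acetyl-CoA carboxylases that feed fatty acid synthesis, pantothenate is the precursor of coenzyme A, and lipoate is the swinging arm of the mitochondrial 2-oxoacid dehydrogenases. Slc19a1 and Slc46a1 carry folate, Slc19a2 and Slc19a3 carry thiamine, Slc52a2 and Slc52a3 carry riboflavin, and Slc23a1 and Slc23a2 carry vitamin C, which rats also make in the liver.

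The windows around the start sites of Slc5a6 and of Atraid are shown because these neighbouring genes lie on opposite strands with their starts close together, while their values across the groups are set side by side further on. Each window runs from 250 bases before to 50 bases after the start, 5′ to 3′ on the gene's own strand, as RefSeq gives it for the assembly GRCr8. Capitals mark the E-box CACGTG and the GC box GGGCGG on either strand, 2 motifs chosen after the sequence was seen and not overlapping here. The Slc5a6 window is chr6:31040150-31040449 on the plus strand and the Atraid window is chr6:31039730-31040029 on the minus strand.
Slc5a6: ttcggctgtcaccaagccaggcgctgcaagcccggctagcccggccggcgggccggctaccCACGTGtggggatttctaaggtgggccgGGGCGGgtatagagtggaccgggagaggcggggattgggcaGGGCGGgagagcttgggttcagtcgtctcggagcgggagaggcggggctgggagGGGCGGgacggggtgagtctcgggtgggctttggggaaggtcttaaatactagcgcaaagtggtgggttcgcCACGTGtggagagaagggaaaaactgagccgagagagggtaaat
Atraid: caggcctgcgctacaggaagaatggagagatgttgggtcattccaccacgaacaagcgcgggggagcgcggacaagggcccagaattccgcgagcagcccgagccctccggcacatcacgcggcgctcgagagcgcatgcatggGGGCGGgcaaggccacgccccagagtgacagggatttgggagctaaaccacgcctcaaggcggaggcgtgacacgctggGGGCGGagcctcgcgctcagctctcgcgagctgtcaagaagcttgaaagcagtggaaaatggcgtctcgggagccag
The Slc5a6 window held 2 E-boxes, at positions -189 and 7 from the start, and 3 GC boxes. The Atraid window held 0 E-boxes and 2 GC boxes. Of 33469 windows of the same length in the table, 6.42% held at least 1 E-box and 0.520% held at least 2. At least 3 GC boxes were found in 8.97% of them. G and C made up 65.3% of the Slc5a6 window against a median of 51.7% over all windows. The shares were not matched for this content, and both motifs are rich in G and C. Windows were matched for 7 of the 9 members, and the 6 besides Slc5a6 held 0 E-boxes. Slc52a2 and Slc52a3 were not matched. Such matches describe letters in a window and not bound sites.

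Library totals were 2771967 to 3542749 reads in 8 libraries, where 1 read stood for a value of 0.672 to 0.913. BB replicate 8 stood apart, with 12267084 reads of which 76.5% fell on 10 genes (10.2 to 19.2% elsewhere), no read for 47.4% of genes, and a value of 14.6 for 1 read. Its correlations with the other libraries were 0.577 to 0.594, against 0.961 to 0.969 among those 8, so it is given apart and BB rests on replicates 1 and 4. The values are read counts divided by 1 factor per library, with no correction for transcript length, so levels are not compared between genes. According to the paper the tissue is retroperitoneal adipose tissue, but the data columns carry a letter code that differs from the sample titles and is not explained. All 12 adipocyte markers had reads in all 8 libraries, with means from 11.8 for Fabp4 to 197 for the hormone leptin (Lep). The markers found of hepatocytes (11), enterocytes (6), macrophages (5) and muscle (3) also had reads in all 8. Per library, only 1.92 to 2.72% of all genes had no read in these 8, so nearly any marker would have reads. The presence of reads alone therefore does not settle the tissue.

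Slc5a6 had values of 220.3, 198.7 and 263.0 in HE replicates 2, 3 and 4. In DB replicates 1, 2 and 6 it had 89.5, 100.4 and 88.9. In BB replicates 1 and 4 it had 85.7 and 94.2. All 3 HE libraries lay above every DB and BB library, and the DB and BB values overlapped. These values rest on 328, 235 and 337 reads in HE, on 98, 124 and 119 in DB, and on 110 and 117 in BB. The means were 227 ± 32.7 in HE (SD, n = 3), 92.9 ± 6.47 in DB (SD, n = 3) and 89.9 ± 6.06 in BB (SD, n = 2). On the log2(value + 1) scale the difference was -1.27 between DB and HE (SE 0.13), a level 2.42-fold lower in DB. Between BB and HE it was -1.32 (SE 0.14), a level 2.50-fold lower in BB. Between BB and DB, the comparison with the extract, the difference was -0.05 with a 95% interval of -0.34 to 0.25 (limma, adjusted p = 0.999). The DB libraries of that test are those on which the gene was selected. In bulk RNA, fewer cells that express Slc5a6 and less RNA per cell cannot be told apart.

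BB replicate 8 held 1 read of Slc5a6, a value of 14.6, and the exact Poisson 95% interval of that value was 0.370 to 81.5. This interval covers counting error only, as do the others given for this library. With BB replicate 8 in the fit, the BB against HE difference of Slc5a6 was -2.17 and the BB against DB difference was -0.89 (limma, adjusted p = 0.530). Of the reads of all 9 members, Slc5a6 took 24.4, 21.6 and 28.5% in HE, 11.4, 13.5 and 11.4% in DB, and 11.9 and 13.1% in BB. These shares use the Slc5a6 reads on which the gene was selected and restate that choice as shares. In BB replicate 8 the share was 2.27%, 1 of 44 reads.

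**Figure D1:**
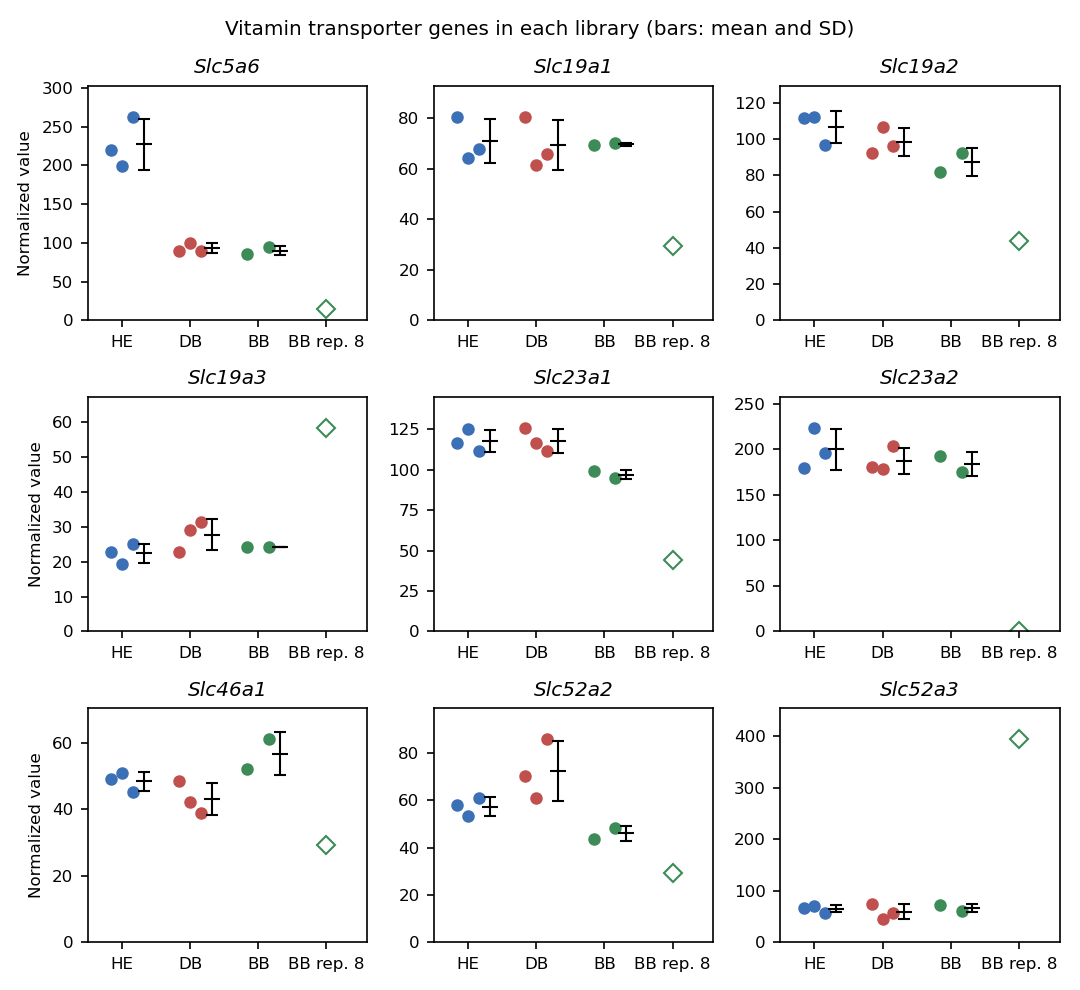
Normalized value (y axis, from 0, own scale per panel) of the 9 vitamin transporter genes in each library. Filled points are libraries, black bars are the group mean and SD, and the open diamond is BB replicate 8. The Slc5a6 points of HE lie at 198.7 to 263.0 and those of DB and BB at 85.7 to 100.4, and for Slc52a3 the diamond lies at 395.

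Some markers of other cell types were called lower than in HE. Of all genes, 0.677% were called between DB and HE and 0.192% between BB and HE. The 6 T and natural killer cell markers, 6 of 6 with reads in all 8 libraries, summed to 320 to 377 in HE, 185 to 255 in DB and 230 to 241 in BB. One of them, the receptor gene Klrk1, was called lower in DB (-1.58, limma adjusted p = 4.5e-05) and in BB (-1.39, limma adjusted p = 0.00091) than in HE. Without Klrk1 the other 5 summed to 194 to 219 in HE, 149 to 211 in DB and 176 to 191 in BB. HE and DB thus overlapped, while both BB sums still lay below HE. The 11 of 12 hepatocyte markers found, none at 0 in these libraries, summed to 1965 to 2471 in HE, 1659 to 1664 in DB and 2000 to 2054 in BB. Of these Alb (-1.12, limma adjusted p = 0.000145) and Tf (-0.49, limma adjusted p = 0.0363) were called lower in DB than in HE. The other 9 summed to overlapping ranges of 1053 to 1263 in HE and 1069 to 1109 in DB. No enterocyte or macrophage marker was called, and their sums overlapped between HE and DB, at 824 to 1002 and 749 to 834 for the 6 of 6 enterocyte markers, and at 1698 to 1825 and 1425 to 1766 for the 5 of 5 macrophage markers. In BB these sums were 756 to 765 and 1404 to 1416, below HE. Adipocyte markers summed to overlapping ranges of 910 to 1070 in HE, 854 to 1064 in DB and 913 to 951 in BB. The part of these markers in the Slc5a6 values was not tested.

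Slc5a6 lies between Atraid, named for its induction by all-trans retinoic acid, and Tcf23, a helix-loop-helix factor. Atraid had 43.7, 24.5 and 35.1 in HE, 25.6, 30.0 and 37.4 in DB, and 35.0 and 39.5 in BB. Its 3 groups overlapped, and its DB against HE difference was -0.13 with a 95% interval of -0.58 to 0.32 (limma, adjusted p = 0.918). Within each library, Slc5a6 had 5.05, 8.10 and 7.49 reads per read of Atraid in HE, 3.50, 3.35 and 2.38 in DB, and 2.44 and 2.39 in BB. Its numerator is again the reads on which Slc5a6 was selected, so the ratio is a description. Tcf23 had 111.5, 92.2 and 98.3 in HE, 132.4, 108.5 and 124.1 in DB, and 97.3 and 139.3 in BB. Its DB against HE difference was 0.27 (SE 0.14, limma, adjusted p = 0.583). Over all members, 15 neighbouring or overlapping genes were tested. Of these limma called 0 in each comparison, beside 0.677, 0.192 and 0% of all genes. An unadjusted p under 0.05 was found for 1 in DB against HE (9.43% of all genes), 0 in BB against HE (6.86%) and 1 in BB against DB (4.95%), and edgeR and DESeq2 also called 0.

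**Figure D2:**
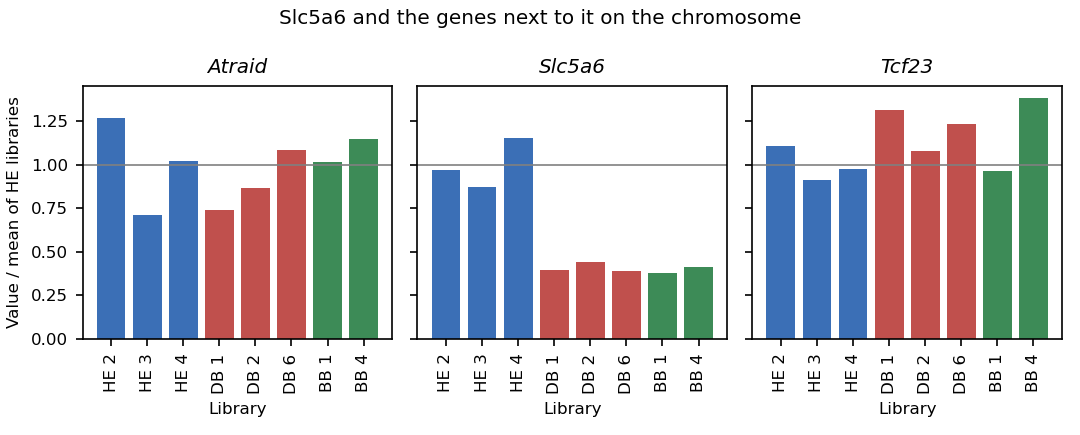
Value of Atraid, Slc5a6 and Tcf23 in each of 8 libraries divided by the gene's mean in HE (y axis, from 0, no unit), with bars coloured by group. The grey line is the HE mean, and the Slc5a6 bars of all 5 DB and BB libraries lie far below it, while bars of Atraid and Tcf23 in those libraries lie on both sides.

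The members are read below against all 32371 genes tested, each called at an adjusted p under 0.05. Between DB and HE, 0 of the 8 members besides Slc5a6 were called (0.677% of all genes, 219 genes), 0 had an unadjusted p under 0.05 (9.43% of all genes), and 0 had groups that did not overlap (14.1% of all genes). Their median log2 fold change was -0.06, and that of all genes was 0.01. Between BB and HE, 0 of 8 were called (0.192% of all genes), and 1, Slc23a1, had an unadjusted p under 0.05 (6.86% of all genes). Groups did not overlap for 4 of 8, with 1 higher in BB, against 22.1% of all genes. Between BB and DB, 0 of 9 were called (0% of all genes by limma, where 1603 had an unadjusted p under 0.05, edgeR called 1 gene and DESeq2 called 2). An unadjusted p under 0.05 was found for 3 of 9, Slc52a2, Slc46a1 and Slc23a1 (4.95% of all genes), and groups did not overlap for the same 3 (19.6% of all genes). On the recovered reads, edgeR called 0 members in each comparison, with 1, 0 and 3 at an unadjusted p under 0.05 in the order above, and DESeq2 called 0, with 0, 0 and 1. The comparisons share HE or DB libraries and are not independent of each other.

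**Figure D3:**
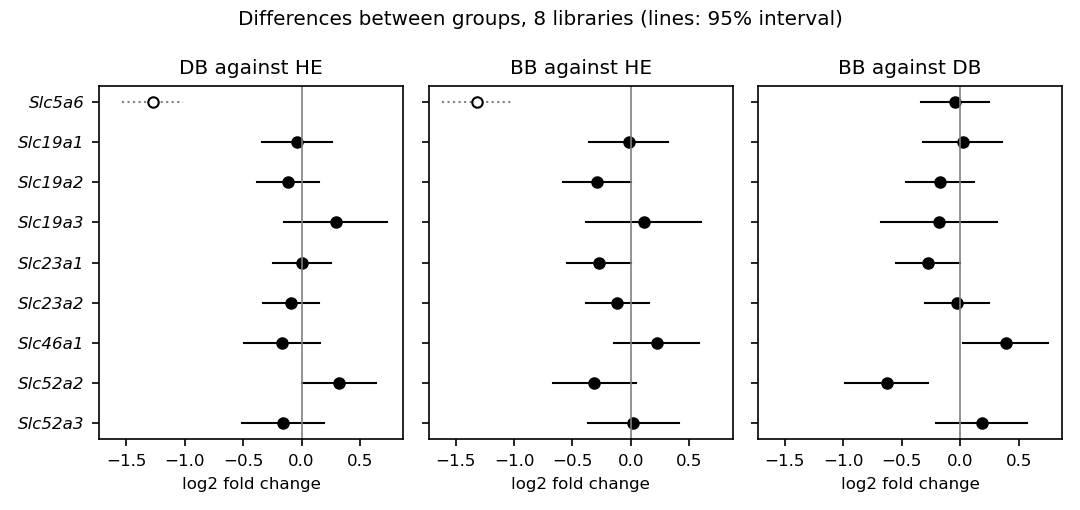
Log2 fold change (x axis) of the 9 genes in the 3 comparisons over 8 libraries, with 95% intervals from limma. Open points with dotted lines are the Slc5a6 differences given without a test, at -1.27 and -1.32. Their intervals make no allowance for the selection of Slc5a6. In BB against DB the point lowest on the axis is Slc52a2 at -0.63.

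Of the folate carriers, Slc19a1, the reduced folate carrier, had 80.6, 64.3 and 67.9 in HE, 80.3, 61.5 and 65.8 in DB, and 69.3 and 70.1 in BB. The groups overlapped, and its differences were -0.04 for DB against HE, -0.02 for BB against HE and 0.02 for BB against DB. Slc46a1, the proton-coupled folate transporter of the gut, had 49.0, 50.7 and 45.3 in HE, 48.4, 42.1 and 38.9 in DB, and 52.2 and 61.2 in BB. Both BB values lay above all 6 others. The difference was 0.39 for BB against DB (SE 0.17, unadjusted p = 0.038, limma adjusted p = 0.992), 0.22 for BB against HE and -0.17 for DB against HE.

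Of the riboflavin carriers, Slc52a2 had 57.8, 53.3 and 60.9 in HE, 70.3, 60.7 and 86.0 in DB, and 43.6 and 48.3 in BB. Both BB values lay below every HE and DB value, while DB and HE overlapped. Its BB against DB difference was -0.63 with a 95% interval of -0.99 to -0.27 (SE 0.17), which had the smallest unadjusted p among the members (unadjusted p = 0.00148, limma adjusted p = 0.943). The DB against HE difference was 0.32 (SE 0.15, limma adjusted p = 0.531), and the BB against HE difference was -0.31 (limma adjusted p = 0.786). Slc52a2 overlaps Fbxl6 in the GRCr8 annotation. With no word on strand in the counting, it is not known to which gene reads of the shared stretch were given. Fbxl6 had a BB against DB difference of -0.17 (limma adjusted p = 0.998). Slc52a3 had 66.5, 71.0 and 57.8 in HE, 74.9, 46.2 and 56.1 in DB, and 71.6 and 60.4 in BB. Its groups overlapped, with differences of -0.16, 0.02 and 0.18 in the order DB against HE, BB against HE and BB against DB.

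Of the thiamine carriers, Slc19a2 had 111.5, 112.5 and 96.8 in HE, 92.2, 106.9 and 96.4 in DB, and 81.8 and 92.6 in BB. The BB values lay below all HE values and overlapped DB. The difference was -0.29 for BB against HE (SE 0.14, unadjusted p = 0.051, limma adjusted p = 0.732), -0.12 for DB against HE and -0.17 for BB against DB. Slc19a3 had 22.8, 19.4 and 25.0 in HE, 22.8, 29.1 and 31.4 in DB, and 24.1 and 24.2 in BB. It rested on 23 to 42 reads per library, its groups overlapped, and its differences were 0.29 (SE 0.21), 0.11 and -0.18.

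Of the vitamin C carriers, Slc23a1, known from epithelia of gut and kidney, had 116.2, 125.1 and 111.6 in HE, 126.0, 116.6 and 111.4 in DB, and 98.9 and 95.0 in BB. Both BB values lay below the other 6, and HE and DB overlapped. The difference was -0.28 for BB against DB (SE 0.13, unadjusted p = 0.0455, limma adjusted p = 0.992), -0.28 for BB against HE (SE 0.13, unadjusted p = 0.048, limma adjusted p = 0.726) and 0.00 for DB against HE. Slc23a1 overlaps Paip2, which encodes a repressor of poly(A)-binding protein. The Paip2 difference was -0.39 for DB against HE (limma, adjusted p = 0.696), -0.23 for BB against HE (limma, adjusted p = 0.940) and 0.16 for BB against DB (limma, adjusted p = 0.998). Slc23a2, the more widely expressed carrier, had 180.0, 224.1 and 195.9 in HE, 180.8, 178.1 and 203.3 in DB, and 193.1 and 174.7 in BB. Its groups overlapped, with differences of -0.09, -0.12 and -0.03.

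In BB replicate 8 the members rested on few reads. Slc52a3 had 27 reads, a value of 395 with an exact Poisson 95% interval of 260 to 575. That value lay above every other library, while the reads were fewer than the 57 to 99 elsewhere. Slc19a3 had 4 reads, a value of 58.5 with an interval of 15.9 to 149.9. Slc23a2 had 0 reads, a value of 0 with an interval of 0 to 54.0, below all 8 other libraries. The other members had 1 to 3 reads. With this library in the fit, limma called 0 members in each comparison, with 0, 0 and 1 at an unadjusted p under 0.05, and the BB against DB difference of Slc52a3 was 1.04 (limma, adjusted p = 0.530).

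Likeness to Slc5a6 was measured as Pearson's r of log2(value + 1) over the 8 libraries, among 19784 genes with a mean of at least 20, and is a description over points that share libraries and groups. The most alike were Psmd9 (r = 0.996), a chaperone of proteasome assembly, Zbtb49 (r = 0.992), a zinc finger factor, Tgfb1i1 (r = 0.990), a focal adhesion protein, AABR07065363.1 (r = 0.986) and Itga4 (r = 0.984), an integrin subunit of leukocytes. Psmd9 had 112.8, 90.5 and 135.0 in HE, 37.4, 41.3 and 33.6 in DB, and 35.0 and 42.7 in BB. Its HE values were lowest in replicate 3 and highest in replicate 4, as were those of Slc5a6. That order is part of the likeness by which Psmd9 was picked, and r rests on the values that selected Slc5a6. The most opposite were Slc18a3 (r = -0.988), the vesicular acetylcholine transporter, Pcyox1 (r = -0.984), Anxa5 (r = -0.983), Jade3 (r = -0.972) and Ccdc17 (r = -0.969). Among the other members, r ran from -0.45 for Slc19a3 to 0.60 for Slc19a2, which ranked 2070 of the 19784.

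Other genes were taken as 9 lists with 98 genes in the files, namely enzymes that use or make the same vitamins, other vitamin carriers and receptors (also of vitamin B12, retinol and vitamin E), and sodium-coupled relatives of Slc5a6 with other cargo. Between DB and HE, 0 of the 98 were called by limma (0.677% of all genes), and 7 were higher and 8 lower at an unadjusted p under 0.05, or 15.3% of the lists and 9.43% of all genes. The smallest adjusted p was 0.0544. Between BB and HE, 0 were called (0.192% of all genes), with 1 higher and 7 lower unadjusted, or 8.16% of the lists and 6.86% of all genes. Between BB and DB 0 were called (0% of all genes), with 0 higher and 3 lower, or 3.06% of the lists and 4.95% of all genes, and edgeR and DESeq2 also called 0 in these 2 comparisons. For DB against HE, edgeR called 1 (Dld) and DESeq2 called 1 (Slc25a42).

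For the vitamins that Slc5a6 carries, the lists held 9 biotin genes (median DB against HE difference 0.16), 10 pantothenate and coenzyme A genes (-0.01) and 8 lipoate genes (-0.15), beside 0.01 for all genes. Dld, the dehydrogenase subunit that reoxidises lipoate, had 103.4, 113.3 and 106.9 in HE, 76.7, 75.3 and 71.8 in DB, and 81.0 and 93.4 in BB. All DB and BB values lay below HE. The DB against HE difference was -0.53 (SE 0.12, limma adjusted p = 0.0544). Pank2, a mitochondrial pantothenate kinase, had 178.0, 191.1 and 161.5 in HE, 122.3, 144.1 and 115.1 in DB, and 114.5 and 136.9 in BB. Here too HE lay above the rest, with differences of -0.48 for DB against HE (limma adjusted p = 0.0953) and -0.49 for BB against HE (limma adjusted p = 0.321). Acacb, the mitochondrial acetyl-CoA carboxylase, had 460.8, 473.5 and 549.4 in HE, 366.1, 398.4 and 415.6 in DB, and 432.9 and 365.6 in BB. HE lay above the rest, with a DB against HE difference of -0.33 (limma adjusted p = 0.303). For Pc, pyruvate carboxylase and also biotin-dependent, the same difference had the other sign, 0.26 (limma adjusted p = 0.469). Gcsh, the lipoyl protein of glycine cleavage, had a difference of -0.42 (limma adjusted p = 0.513). Coasy, the last enzyme of coenzyme A synthesis, had -0.13 (limma adjusted p = 0.822). Vnn1, a pantetheinase, had 0.33 between BB and HE (SE 0.20), with overlapping groups.

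Among other carriers, Slc25a42, the mitochondrial carrier of coenzyme A, had 258.6, 415.2 and 255.2 in HE, 435.5, 525.5 and 430.5 in DB, and 310.7 and 315.7 in BB. DB lay above HE and BB, with a DB against HE difference of 0.61 (SE 0.15, limma adjusted p = 0.0713). Slc46a3, a lysosomal relative of Slc46a1, had a DB against HE difference of 0.69 (SE 0.18, limma adjusted p = 0.0851) and HE values of 124.9, 220.7 and 112.4 that overlapped DB. Slc25a16, a mitochondrial carrier and the list gene of highest mean, had -0.19 (limma adjusted p = 0.758). Of the 11 sodium-coupled relatives of Slc5a6, Slc5a10 had -0.40 (limma adjusted p = 0.108) and Slc5a9 had -0.36 (limma adjusted p = 0.284) between DB and HE, and the list median was -0.02.

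In the thiamine list of 9 genes, Pdhb, a subunit of pyruvate dehydrogenase, had 60.5, 51.6 and 60.1 in HE, 32.9, 51.0 and 32.9 in DB, and 42.8 and 57.2 in BB. DB lay below HE by a narrow margin at DB replicate 2, with a difference of -0.58 (limma adjusted p = 0.225). Pdha1, its partner subunit, had -0.24 between BB and HE (limma adjusted p = 0.810), and Hacl1, a peroxisomal lyase, had -0.02 between DB and HE. The 20 folate genes had a median DB against HE difference of -0.00. Among them Ggh, which trims polyglutamate from folate, had 0.48 (limma adjusted p = 0.522) and Atic, a purine synthesis enzyme, had 0.31 (limma adjusted p = 0.451), while Folh1, a folate hydrolase, had -0.20 (limma adjusted p = 0.657). The 2 riboflavin genes, Flad1 (0.29) and Rfk (-0.09), had a median of 0.10, and the 7 vitamin C genes one of 0.06. Akr1a1, an aldehyde reductase in vitamin C synthesis, had 0.40 between DB and HE (limma adjusted p = 0.485) and 0.51 between BB and HE (limma adjusted p = 0.618), a sign that turned to -0.66 with BB replicate 8 in the fit. Gsto1, a glutathione transferase, had 0.55 between DB and HE at values of 3.38 to 14.0 (limma adjusted p = 0.723).

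**Figure D4:**
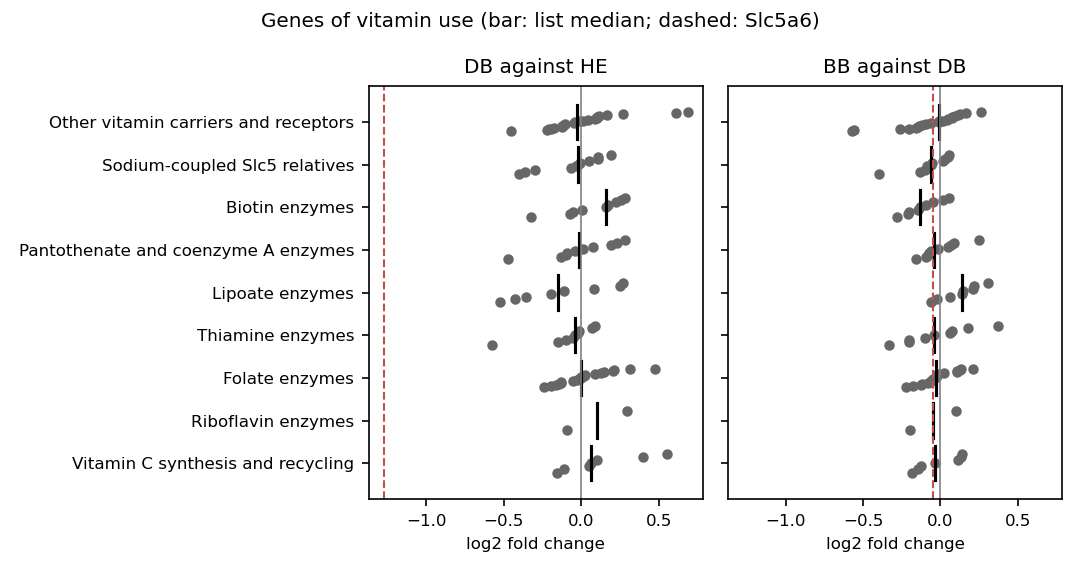
Log2 fold change (x axis) of the genes in 9 lists of vitamin carriers and enzymes, 1 point per gene, for DB against HE and BB against DB. Black bars are list medians and the dashed line is Slc5a6, which lies at -1.27 in DB against HE, to the left of all 98 points, and at -0.05 in BB against DB. Slc5a6 was selected on its DB against HE difference, so its place in that panel is a description only.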

How the data were processed

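The deposited files hold, per gene and library, a normalized signal that the authors made by dividing read counts by 1 size factor per library. The value of 1 read was estimated for each library from its smallest values, taking the lowest as 1 read. Dividing by it gave whole reads for 100% of values (within 0.1 reads). Read counts and totals are thus inferred. Which aligner, counter and annotation were used, and whether strand was, is not given in the sources used here. Builds listed in the submitters' processing notes are GRCm38 and mm10, both of mouse, although the gene names are those of rat. Depth was 2771967 to 3542749 reads, and 12267084 in BB replicate 8. No source gives separate extractions beyond 1 rat per library.

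Groups came from the labels. Differences were tested in 1 limma (3.58.1) fit with a trend on log2(value + 1), over 8 libraries and 32371 genes whose mean value reached 1 in a group, with Benjamini-Hochberg adjustment. Fold changes are on that scale and understate changes of low genes. The paper's own methods name a t-test. Alternatives were edgeR (4.0.16) and DESeq2 (1.42.0) on recovered reads, TMM and total-count scaling, a pseudocount of 0.1, other filters, the compared groups alone, genes with the same reads kept once, all 9 libraries, and each library left out in turn. Scripts were tested on simulated data. The members, lists and tests were chosen with earlier results of these data known. Named genes were all members, the 2 genes per list with the smallest unadjusted p, its gene of highest mean, the neighbours of Slc5a6, and the 5 genes most and least like it. Cell type markers, genes overlapping a member and genes brought in for BB replicate 8 were named after their values were seen.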

Additional observations from a re-analysis of the deposited data

Results flagged for a closer look

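Some genes stood out in BB replicate 8, the library left out of the tests, where the lower bound of the exact Poisson interval lay above the highest HE value. Among the members this was Slc52a3, with a value of 395 (27 reads) against at most 71.0 in HE. Its reads there were fewer than the 99, 84 and 74 of HE replicates 2, 3 and 4. Among the 98 list genes it was 13. The share of all genes that met this rule was not counted, so these counts have no baseline and mark no trait of vitamin genes. Slc44a4, a carrier of choline and thiamine pyrophosphate, had 107910 against at most 476 in HE. In BB replicates 1 and 4 it had 233.6 and 357.5, below all HE values (419.1 to 476.0). Without replicate 8 its differences were -0.60 for BB against HE (limma adjusted p = 0.317) and -0.45 for DB against HE (limma adjusted p = 0.253). Of the other carriers in BB replicate 8, Slc25a42 had 63555, Slc46a3 29151 and Slc5a7 322. Of the pantothenate, lipoate and riboflavin enzymes Pank2 had 5166, Rfk 893, Gcsh 395 and Ppcs 73.2 (5 reads). Of the folate enzymes Shmt2 had 2019, Mthfd1 1478, Ggh 351, Mthfd2 337 and Mthfd2l 205. The interval covers counting error only, this library had 76.5% of its reads on 10 genes, and no test was made on it alone.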

How the results depend on the processing

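Of the members, 0 were called in each comparison under each alternative. For DB against HE, Slc5a6 lay between -1.37 and -1.16. For BB against HE it lay between -1.41 and -1.21 without single libraries but at -2.17 with all 9 libraries (-1.60 in edgeR). Both ranges refit the HE values on which Slc5a6 was selected, so they describe that choice and add no support. The number of list genes called between DB and HE, 0, was 1 in edgeR (Dld), 1 in DESeq2 (Slc25a42), 1 with at least 10 reads in every library (Dld), 3 with total-count scaling (Slc25a42, Pank2 and Dld), and 0 to 2 without single libraries (2 without HE replicate 3). The cause was not tested. DESeq2 gave an adjusted p for 4 of the 8 tested members in DB against HE.

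Some differences changed sign. With all 9 libraries, where the median of all genes moved by -0.51 in both BB comparisons, Slc46a1 was at -0.0862 and Akr1a1 at -0.66 (0.51 without replicate 8) for BB against HE, and Slc19a1 at -0.39 (-0.0840 in edgeR) and Slc19a3 at 0.23 for BB against DB. With total-count scaling, Slc23a1 was at -0.0507 for DB against HE, Slc19a1 at 0.0124 for BB against HE, and for BB against DB Slc5a6 was at 0.0392 and Slc23a2 at 0.0598. Without single libraries, DB against HE ran from -0.15 to 0.0574 for Slc19a1, from -0.0441 to 0.0488 for Slc23a1, from -0.13 to 0.0481 for Hacl1 and from -0.21 to 0.0511 for Rfk. BB against HE ran from -0.0853 to 0.0759 for Slc19a1 and from -0.10 to 0.14 for Slc52a3. BB against DB ran from -0.11 to 0.0217 for Slc5a6, from -0.0604 to 0.13 for Slc19a1 and from -0.0978 to 0.0455 for Slc23a2.

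Genes called between DB and HE numbered 219, and 59 without HE replicate 4, 420 without HE replicate 3 and 1 with no filter. Leaving out a BB library leaves 1, assumed to vary like the other groups. No paired analysis was possible, because the paper assigned rats to the groups at random. Replicate numbers name separate rats, and a number found in more than 1 group is no pair.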
